A study of Mus musculus with 8 samples.

Results

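The cytosolic nucleic acid sensors examined here are 10 genes that act as receptors for RNA or DNA in the cytosol or as the adaptors, kinase and double-stranded RNA binding enzymes that work with them. They are Ddx58 (RIG-I), Ifih1 (MDA5), Dhx58 (LGP2), Mavs, Zbp1, Mb21d1 (cGAS), Tmem173 (STING), Tbk1, Eif2ak2 (PKR) and Adar (ADAR1). All 10 names were found among the 12823 rows of the count table, and all 10 were among the 12494 genes that were expressed highly enough to be tested. They were chosen by name, with no measured value in the rule, but with earlier results of these data known.

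Expression was measured by RNA-seq in mouse acute myeloid leukemia (AML) cells that carry MLL-AF9, a fusion oncogene delivered together with GFP by a retrovirus into bone marrow progenitors. Libraries of 4 new AML samples came from the leukemia that first arose in sublethally irradiated recipients, and libraries of 4 aggressive AML samples came from cells described as derived from it by 5 serial transplantations into recipients that had not been irradiated. In both groups the leukemia cells had been grown in C57BL/6 mice and were sorted from bone marrow by their GFP, so that the fusion gene and the reporter were common to all 8 libraries. The authors made the comparison to ask how the leukemia changed during passage through mice with an intact immune system. Irradiation of the recipients, as described, follows the group and cannot be told apart from passage. The labels call the samples biological replicates without saying which mouse each came from, so the p-values measure the spread between these samples. They record no batch or date, and a batch that follows the group cannot be told apart from it.

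Cells detect foreign or misplaced nucleic acid through a few families of proteins. RIG-I and MDA5 bind double-stranded RNA and signal through the mitochondrial adaptor MAVS, while cGAS binds DNA and makes a cyclic dinucleotide that activates STING. Both routes reach the kinase TBK1, which activates interferon regulatory factors and so induces type I interferon, and interferon in turn raises the expression of many of the sensors themselves.

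Total counts lay between 7805544 and 9697777 per library. The 7 marker genes of MLL-AF9 leukemia, among them Hoxa9, Meis1 and Myb, were all measured, with a summed level of 3924 to 4381 CPM (the count of a gene relative to its library total, after TMM scaling) in new AML and 3398 to 4654 CPM in aggressive AML. Of these 7 genes, 1 passed the test as lower in aggressive AML and 2 as higher, with a median log2 fold change of 0.07. Of the 7 T cell markers, 1 (Lck) was measured, at 2.85 to 3.90 CPM in new AML and 3.53 to 6.03 CPM in aggressive AML, and of the 5 NK cell markers, 1 (Klrk1) was measured, at 3.90 to 7.92 and 2.47 to 5.83 CPM. The 9 neutrophil markers summed to 299.9 to 447.9 CPM in new AML and 148.1 to 197.0 CPM in aggressive AML, and 7 of them passed the test as lower. The 9 erythroid markers summed to 28.4 to 101.9 and 10.6 to 54.2 CPM, the 4 measured of 9 macrophage markers to 81.4 to 143.1 and 55.6 to 90.3 CPM, and the 3 measured of 6 B cell markers to 36.6 to 42.2 and 30.6 to 33.7 CPM. The 6 measured of 8 plasmacytoid dendritic cell markers summed to 644.3 to 706.7 and 628.1 to 720.3 CPM, and the 3 measured of 6 conventional dendritic cell markers to 492.9 to 711.4 and 613.0 to 807.2 CPM. As lower, 2 of 7 tested erythroid, 1 of 3 tested macrophage, 2 of 6 tested plasmacytoid dendritic cell and 1 of 2 tested conventional dendritic cell markers passed, with median log2 fold changes of -1.02, -0.83, -0.39 and -0.80, and 0 passed as higher. Among all tested genes, 10.2% passed as lower and 8.15% as higher. The other genes of these lists were not analysed here. The 4 Y-linked genes of the table summed to 2315 to 2574 counts in each new AML library and to 0 in each aggressive AML library, although the groups are described as stages of the same leukemia. In bulk RNA, fewer cells of a type and less RNA per cell cannot be told apart. The part of these other cell type markers in the results on the sensors was not tested, and a change within one leukemia cannot be told apart here from a difference between leukemias of separate origin, which bears on every fold change given here.

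All 10 sensor genes had a lower fitted level in aggressive AML than in new AML, and for 8 of them the fall passed the test, which was edgeR's quasi-likelihood test with Benjamini-Hochberg adjustment over all tested genes at a threshold of 0.05. None of the 10 passed as higher. Among all tested genes, 10.2% passed as lower, 8.15% as higher and 18.4% in either direction. In the same 8 sensor genes, new and aggressive AML values did not overlap, with every aggressive AML library below every new AML library, which held for 12.0% of all tested genes (21.8% counting either direction). The log2 fold changes of the 10 genes (aggressive AML over new AML) ran from -2.27 to -0.01 with a median of -0.71, beside a median of 0.00 and quartiles of -0.20 and 0.19 over all tested genes. Zbp1 fell most, followed by Ddx58, Ifih1, Tmem173 and Dhx58, each close to 1 on the log2 scale, whereas Tbk1 lay near 0.

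**Figure D1:**
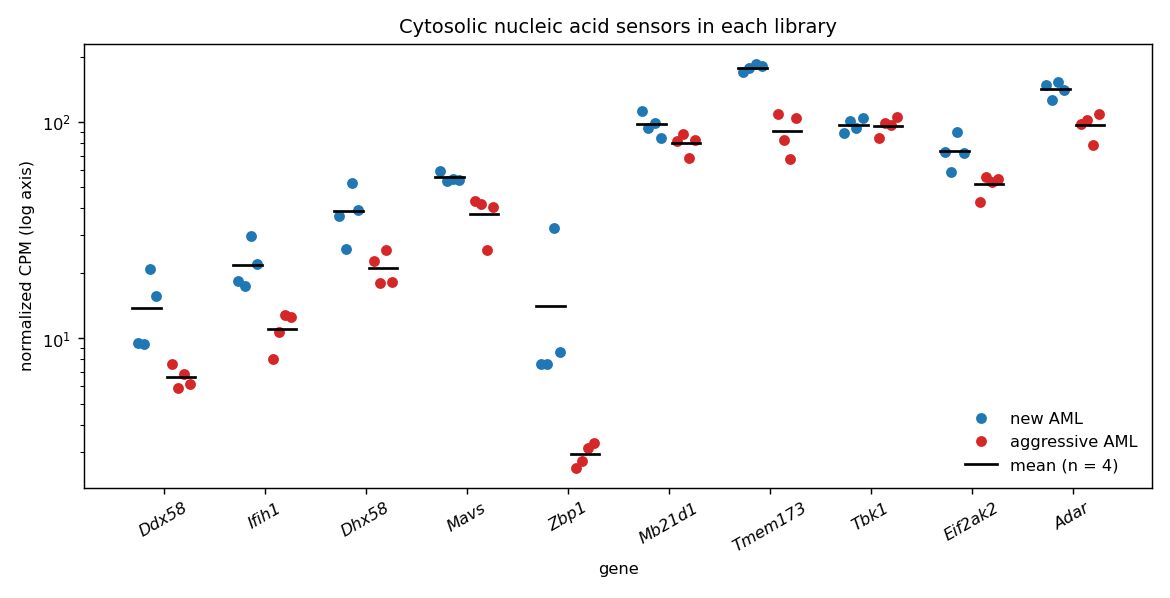
Normalized CPM of each sensor gene in each library (log axis), with new AML in blue, aggressive AML in red and the group mean (n = 4) as a bar. The groups are separate for every gene but Mb21d1 and Tbk1, and the highest Zbp1 value, 32.6 CPM, stands far above the other new AML libraries.

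The RIG-I-like receptors fell together. Ddx58 encodes RIG-I, a helicase that recognises RNA with a 5′ triphosphate (chromosome 4, 40203777 to 40239825, GRCm38.p6). Its level was 9.55, 9.39, 20.9 and 15.7 CPM in new AML replicates 1 to 4 and 7.59, 5.89, 6.87 and 6.15 CPM in aggressive AML replicates 1 to 4. Each new AML library was above each aggressive AML library, and the new AML values spread more widely, with replicates 3 and 4 above the other two. The mean was 13.9 ± 5.51 CPM in new AML against 6.62 ± 0.766 CPM in aggressive AML (SD, n = 4 in each group), a log2 fold change of -1.07 (SE 0.25, edgeR adjusted p = 0.00723).

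Ifih1 encodes MDA5, the helicase that assembles on long double-stranded RNA (chromosome 2, 62595618 to 62646255). It measured 18.4, 17.5, 29.7 and 22.1 CPM in new AML and 8.07, 10.7, 12.8 and 12.6 CPM in aggressive AML, again without overlap and with new AML replicate 3 highest. Mean levels were 21.9 ± 5.55 and 11.1 ± 2.21 CPM (SD, n = 4), and the log2 fold change was -0.98 (SE 0.19, edgeR adjusted p = 0.00219). Dhx58 encodes LGP2, a relative of both that lacks the signalling domains and modulates them (chromosome 11, 100694884 to 100704271). Its values were 36.9, 26.0, 52.3 and 39.5 CPM in new AML against 22.9, 18.0, 25.7 and 18.3 CPM in aggressive AML. The groups came close, since the lowest new AML library exceeded the highest aggressive AML library by little, but did not overlap. Dhx58 fell by 0.87 on the log2 scale (SE 0.18, edgeR adjusted p = 0.00368).

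The first promoter windows are shown because these genes are known to be induced by interferon. Whether interferon had a part in their fall was not tested. A window runs from 250 bases before the annotated start to 50 bases after it, in the RefSeq annotation of GRCm38.p6. Windows were read here for 7 of the 10 sensor genes. No window was read for Dhx58, Zbp1 and Tmem173, which all fell, so whether they hold the motif was not tested. The motif GAAANNGAA, a spaced repeat found in the core of the interferon-stimulated response element, was searched on both strands, so that it also appears as TTCNNTTTC. It was present in 2812 of 32851 windows (8.56%), in 837 of the 9679 tested genes that have a window (8.65%) and in 118 of the 1030 such genes that passed as lower (11.5%). Among the sensor genes with a window read here it was present in 4 of 7, namely Ddx58, Ifih1, Eif2ak2 and Adar. These letters do not occur in the windows of Mavs, Mb21d1 and Tbk1. The share of 4 of 7 leaves out the sensor genes without a window read, so it does not describe all 10. A match describes the letters and is not evidence of binding. The windows of Ddx58 (chr4:40239776-40240075, minus strand) and Ifih1 (chr2:62646206-62646505, minus strand) are written 5′ to 3′ on the strand of the gene, with the motif in capitals. Ddx58 has 1 match, which begins 3 bases after the start, and Ifih1 has 2, which begin 112 bases before and 32 bases after it.
Ddx58: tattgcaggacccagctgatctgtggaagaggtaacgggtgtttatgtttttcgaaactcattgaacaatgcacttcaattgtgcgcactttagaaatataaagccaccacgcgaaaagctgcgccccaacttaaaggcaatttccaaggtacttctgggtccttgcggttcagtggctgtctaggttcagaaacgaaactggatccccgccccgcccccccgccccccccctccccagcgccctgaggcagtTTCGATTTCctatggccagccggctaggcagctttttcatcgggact
Ifih1: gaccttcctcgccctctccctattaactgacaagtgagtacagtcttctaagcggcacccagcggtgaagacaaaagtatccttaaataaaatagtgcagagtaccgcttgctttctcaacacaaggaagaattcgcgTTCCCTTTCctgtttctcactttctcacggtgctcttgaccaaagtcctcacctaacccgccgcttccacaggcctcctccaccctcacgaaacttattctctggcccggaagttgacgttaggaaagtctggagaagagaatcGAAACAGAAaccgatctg

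MAVS, the adaptor through which RIG-I and MDA5 signal, also fell. Mavs (chromosome 2, 131234063 to 131248025) measured 59.7, 53.5, 54.9 and 54.0 CPM in new AML and 43.3, 41.7, 25.7 and 40.5 CPM in aggressive AML. The new AML libraries were tightly grouped, and aggressive AML replicate 3 was well below the other 3 of its group. Means of 55.5 ± 2.87 and 37.8 ± 8.16 CPM (SD, n = 4) gave a log2 fold change of -0.55 (SE 0.14, edgeR adjusted p = 0.0104), and without aggressive AML replicate 3 it was -0.41. The ratio of each receptor to Mavs within a library was not shown to change. The log2 ratio of Ddx58 to Mavs, on CPM + 1, was -1.997 ± 0.56 in new AML against -2.32 ± 0.39 in aggressive AML (SD, n = 4), a difference of -0.33 (exact two-sided permutation p = 0.286, adjusted p = 0.429 over 5 ratios). For Ifih1 over Mavs the difference was -0.34 (exact permutation p = 0.343, adjusted p = 0.429). Single libraries moved both values widely. The Ddx58 difference was -0.11 without new AML replicate 3, -0.50 without new AML replicate 1 and -0.51 without aggressive AML replicate 3, and the Ifih1 difference was -0.14 without aggressive AML replicate 1, -0.19 without new AML replicate 3 and -0.59 without aggressive AML replicate 3. The Mavs window (chr2:131233813-131234112, plus strand) is given beside those of its receptors. The motif does not occur in it, and it therefore holds no capitals.
Mavs: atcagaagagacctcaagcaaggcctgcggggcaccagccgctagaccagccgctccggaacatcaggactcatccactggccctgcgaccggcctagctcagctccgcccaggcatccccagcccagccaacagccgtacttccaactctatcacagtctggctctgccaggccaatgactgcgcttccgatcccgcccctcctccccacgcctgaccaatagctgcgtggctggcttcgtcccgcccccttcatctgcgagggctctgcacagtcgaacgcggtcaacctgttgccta

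Zbp1 had the largest change of the 10 genes. It encodes a sensor of left-handed (Z-form) nucleic acid that binds the kinase RIPK3 and can start necroptosis, a lytic form of cell death (chromosome 2, 173206612 to 173218959). In new AML it measured 7.60, 7.61, 32.6 and 8.70 CPM, and in aggressive AML 2.53, 2.71, 3.11 and 3.30 CPM, which corresponds to 21 to 29 reads per library. The 3 new AML libraries other than replicate 3 lay close together, replicate 3 was 4.09 times their mean, and all 4 were above aggressive AML. The mean fell from 14.1 ± 12.3 to 2.91 ± 0.355 CPM (SD, n = 4 in each group), a log2 fold change of -2.27 (SE 0.44, edgeR adjusted p = 0.00247). Without new AML replicate 3, the new AML mean was 7.97 ± 0.630 CPM (SD, n = 3) and the log2 fold change was -1.45 (edgeR adjusted p = 0.000692).

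Among the genes that act with Zbp1 in cell death, 6 were tested. Of these, 0 passed as lower and 1 as higher, where 10.2% and 8.15% of all tested genes did so, and their median log2 fold change was -0.10. The gene that rose was Mlkl, the pore-forming executor of necroptosis, from 96.8 ± 8.63 to 123.5 ± 10.6 CPM (log2 fold change 0.35, edgeR adjusted p = 0.0121). Ripk3 had a log2 fold change of 0.25 that did not pass (edgeR adjusted p = 0.0728). The log2 ratio of Zbp1 to Ripk3 was -2.92, -2.55, -0.89 and -2.59 in new AML and -4.35, -4.26, -4.12 and -3.94 in aggressive AML, without overlap. It differed by -1.93 between the groups, and by -1.48 without new AML replicate 3. The exact permutation p of 0.0286 is the smallest that the 70 arrangements allow, and after adjustment over 5 ratios it was 0.0714, which does not pass. Only this ratio and that of Mb21d1 to Tmem173 had the smallest p. The adjustment then allows neither to pass at any size of difference, so it does not decide.

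The double-stranded RNA enzymes PKR and ADAR1 both fell moderately. Eif2ak2 encodes PKR, the kinase that halts translation when it binds double-stranded RNA (chromosome 17, 78850504 to 78882572). It measured 72.7, 58.9, 90.3 and 72.2 CPM in new AML and 42.8, 56.1, 53.1 and 54.5 CPM in aggressive AML. The groups were separated only by the small gap between new AML replicate 2 and aggressive AML replicate 2. Eif2ak2 fell from 73.5 ± 12.9 to 51.6 ± 6.02 CPM (SD, n = 4 in each group), a log2 fold change of -0.51 (SE 0.12, edgeR adjusted p = 0.00996). Adar encodes ADAR1, which edits adenosine in double-stranded RNA and so keeps the cell's own RNA from activating MDA5 and PKR (chromosome 3, 89714469 to 89753455). Its values of 148.6, 126.2, 153.4 and 141.4 CPM in new AML were all above the 98.0, 102.0, 78.4 and 108.9 CPM of aggressive AML. The log2 fold change of Adar was -0.56 (SE 0.10, edgeR adjusted p = 0.00135). The sensor PKR and the editor ADAR1 were not shown to change relative to each other, with a log2 ratio of -0.96 ± 0.14 in new AML against -0.89 ± 0.26 in aggressive AML (SD, n = 4, exact permutation p = 0.686). Of the 6000 exonic bases of Adar, 1365 are shared with Chrnb2 on the other strand, and the strand setting of the counting was not stated. Chrnb2 itself was counted at 3.89 CPM in new AML and 4.77 CPM in aggressive AML. Dhx58, Mb21d1 and Eif2ak2 share fewer bases with genes on the other strand, namely 141, 201 and 174.

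The windows of Eif2ak2 (chr17:78882523-78882822, minus strand) and of the last annotated start of Adar (chr3:89730468-89730767, plus strand) are shown because both hold the motif, again in capitals. In Eif2ak2, 2 overlapping matches begin 18 and 24 bases after the start. Adar has windows for 3 annotated starts, of which the last lies 15696 bases downstream of the first. The window of the last start holds matches that begin 249 bases before and 33 bases after the start, and the letters do not occur in the windows of the other two. Gene-level counts do not separate transcripts from these starts.
Eif2ak2: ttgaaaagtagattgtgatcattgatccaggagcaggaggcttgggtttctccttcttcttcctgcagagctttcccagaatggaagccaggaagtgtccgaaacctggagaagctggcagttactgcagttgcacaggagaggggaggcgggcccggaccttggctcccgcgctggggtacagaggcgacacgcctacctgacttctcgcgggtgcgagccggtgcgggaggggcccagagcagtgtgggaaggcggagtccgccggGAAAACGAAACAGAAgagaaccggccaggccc
Adar: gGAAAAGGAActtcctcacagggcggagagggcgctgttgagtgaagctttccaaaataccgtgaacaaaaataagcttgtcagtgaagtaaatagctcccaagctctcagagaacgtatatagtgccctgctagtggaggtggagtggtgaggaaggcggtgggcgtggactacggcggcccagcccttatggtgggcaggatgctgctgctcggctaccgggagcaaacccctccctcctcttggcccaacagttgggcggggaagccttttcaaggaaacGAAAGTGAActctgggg

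**Figure D2:**
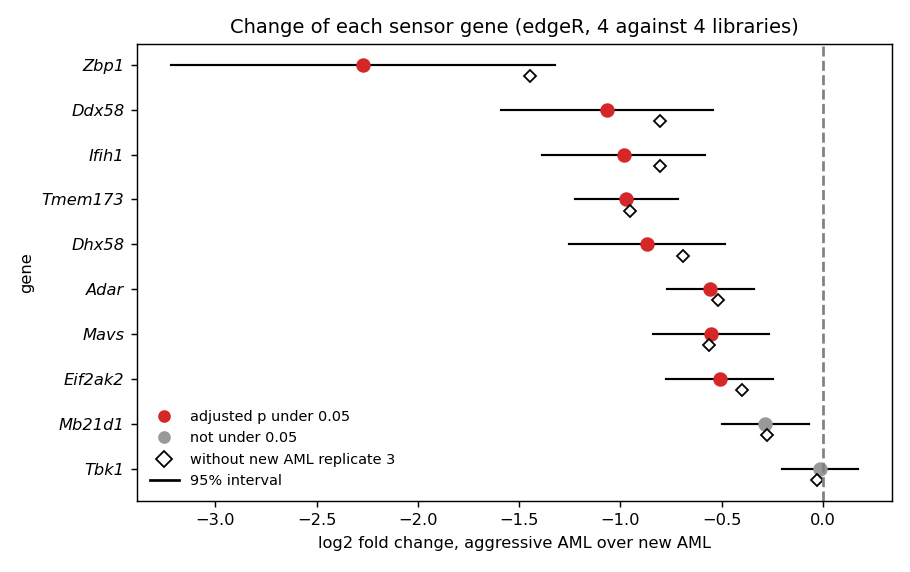
Log2 fold change of each sensor gene, aggressive AML over new AML, from edgeR with its 95% interval. Red points passed the test, grey points (Mb21d1 and Tbk1) did not, and open diamonds give the value without new AML replicate 3, which moves Zbp1 from -2.27 to -1.45 and leaves the same 8 genes past the threshold.

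In the DNA sensing route, the adaptor STING fell and the sensor cGAS was not shown to. Tmem173 encodes STING, the membrane protein of the endoplasmic reticulum that is activated by the product of cGAS (chromosome 18, 35733678 to 35740554). It measured 170.3, 178.1, 185.5 and 181.6 CPM in new AML and 109.5, 82.7, 67.9 and 104.4 CPM in aggressive AML. The new AML libraries differed little, the aggressive AML libraries spread more, and the gap between the groups was wide. The mean fell from 178.9 ± 6.47 to 91.1 ± 19.4 CPM (SD, n = 4 in each group), a log2 fold change of -0.97 (SE 0.12), with the smallest adjusted p of the 10 genes (edgeR, 5.86e-05).

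Mb21d1, the gene of the DNA sensor cGAS (chromosome 9, 78430518 to 78443237), measured 112.3, 94.2, 99.6 and 84.7 CPM in new AML and 82.1, 87.8, 68.0 and 82.9 CPM in aggressive AML. The groups overlapped, because new AML replicate 4 lay below aggressive AML replicate 2. The log2 fold change was -0.28 (95% interval -0.50 to -0.07) with an edgeR adjusted p of 0.0627, and without new AML replicate 4 it was -0.35 with an adjusted p of 0.0403, which passes. Relative to Tmem173 in the same library, Mb21d1 was higher in every aggressive AML library than in any new AML library. The log2 ratio of Mb21d1 to Tmem173 was -0.87 ± 0.20 in new AML against -0.16 ± 0.24 in aggressive AML (SD, n = 4), a difference of 0.71 with an exact permutation p = 0.0286, the smallest possible, and an adjusted p = 0.0714 over the 5 ratios. As for Zbp1 over Ripk3, this adjusted p could not have passed at any size of difference, given the p of the other ratios.

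Tbk1, the kinase on which both routes converge (chromosome 10, 121546455 to 121586794), measured 89.3, 100.8, 94.4 and 105.0 CPM in new AML and 84.2, 99.4, 97.1 and 105.2 CPM in aggressive AML. Neither group stood above the other, and their ranges overlapped almost entirely. Its log2 fold change of -0.01 has a 95% interval of -0.20 to 0.17 (edgeR adjusted p = 0.936), so that a change within these bounds is not excluded. Tbk1 is the member with the smallest fitted change, and its sign turned when single libraries were left out.

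**Figure D3:**
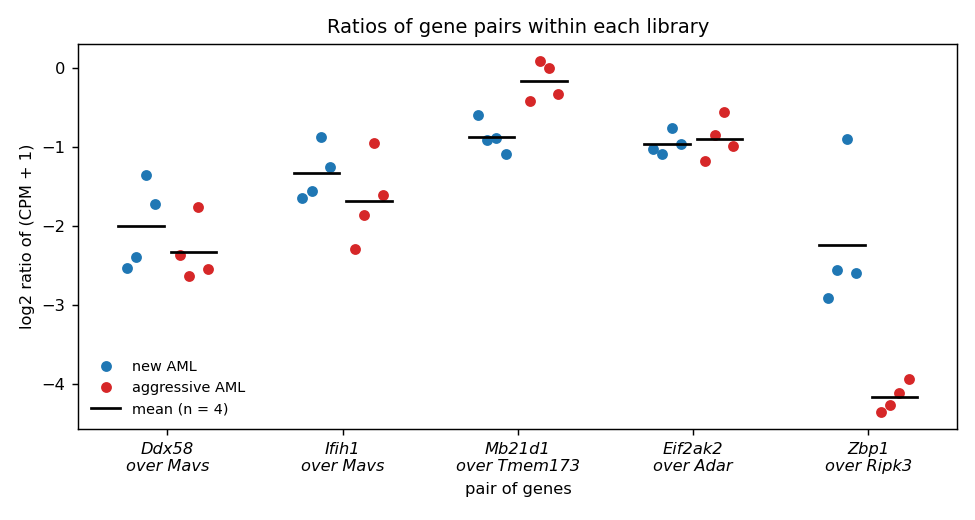
Log2 ratio of (CPM + 1) for the 5 pairs of genes in each library, new AML in blue and aggressive AML in red, with group means (n = 4). The ratios of Mb21d1 to Tmem173 and of Zbp1 to Ripk3 do not overlap between groups, while the other 3 do.

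The libraries of a group were not alike for all sensor genes. In new AML, replicate 3 was the highest library for 7 of the 10 genes, all of them among the 8 that fell. Ddx58 was 1.81 times, Ifih1 1.54 times, Dhx58 1.53 times and Eif2ak2 1.33 times the mean of the other 3 new AML libraries there, against 1.05 for Tmem173 and 1.11 for Adar. In aggressive AML, replicate 3 was lowest for Mavs, Mb21d1, Tmem173 and Adar, at 0.614, 0.808, 0.687 and 0.762 times the mean of the others. For Ddx58, Ifih1 and Dhx58 the same library was instead 1.05, 1.22 and 1.30 times that mean. In new AML replicate 3 the measured B cell markers summed to 42.2 CPM and Klrk1 to 7.92 CPM, against at most 37.9 and 5.57 CPM in the other new AML libraries, and the plasmacytoid dendritic cell markers to 706.7 CPM against at most 701.2 CPM. The macrophage, conventional dendritic cell and leukemia marker sums were the lowest of that group there, at 81.4, 492.9 and 3924 CPM, and the part of these markers in its sensor levels was not tested. Leaving out both libraries numbered 3, a choice made after seeing these values, left 8 of the 10 genes lower, with log2 fold changes from -1.48 for Zbp1 to -0.41 for Eif2ak2.

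**Figure D4:**
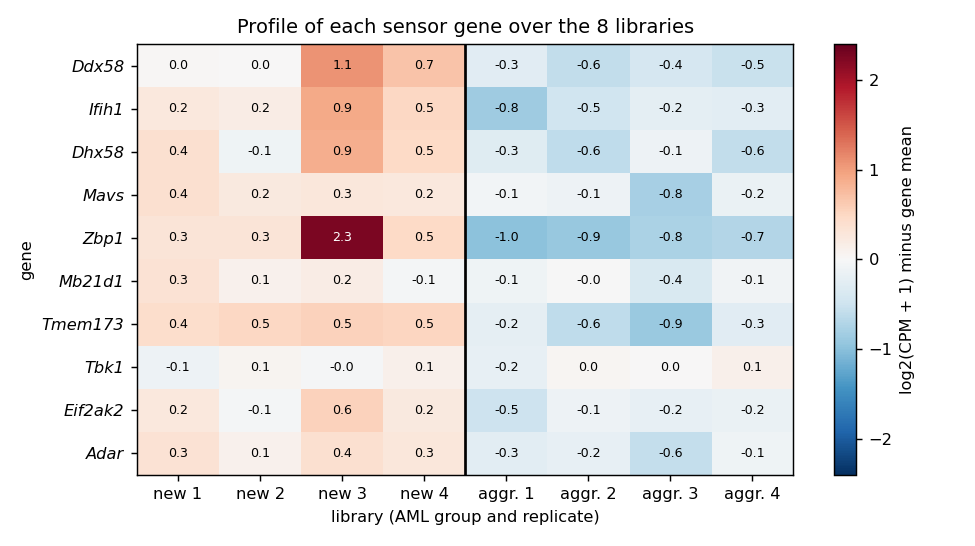
Log2(CPM + 1) of each sensor gene in each library minus the mean of that gene over the 8 libraries, with red above and blue below the mean. New AML replicate 3 is the reddest column for Ddx58, Ifih1, Dhx58 and Zbp1, and aggressive AML replicate 3 is the bluest for Mavs, Mb21d1, Tmem173 and Adar.

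Levels of different genes were compared per kilobase of exonic length. In new AML, Tmem173 was the most abundant at 77.8 ± 2.81 CPM per kilobase, followed by Tbk1 at 32.2 ± 2.29, Mb21d1 at 23.9 ± 2.82, Adar at 23.7 ± 1.98, Mavs at 17.9 ± 0.928, Eif2ak2 at 17.04 ± 2.98 and Dhx58 at 16.03 ± 4.48 (SD, n = 4). Zbp1, Ifih1 and Ddx58 were lowest, at 6.53 ± 5.69, 4.00 ± 1.02 and 3.58 ± 1.42 CPM per kilobase. The ranges over libraries separated Tmem173 from Tbk1, Tbk1 from Mb21d1 and Adar from Mavs, and the ranges of the other neighbours in this order overlapped. In aggressive AML, Tmem173 at 39.6 ± 8.41 CPM per kilobase no longer stood clear of Tbk1 at 31.9 ± 2.93, since their ranges overlapped. The order of the next 5 genes was the same there, and Zbp1 had the lowest mean at 1.35 ± 0.164 CPM per kilobase, with a range that overlapped that of Ddx58. Of the other neighbours in this order, Tbk1 stood clear of Mb21d1 and Dhx58 of Ifih1, and the rest overlapped.

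The genes most like each fallen sensor in profile were sought by the root mean square difference of centred log2(CPM + 1) over the 8 libraries. Nearest to Ddx58 was Ifit1 (0.132), an interferon-induced RNA-binding protein, followed by Slc15a3 (0.166), and Slc15a3 was also nearest to Dhx58 (0.120). Nearest to Ifih1 were Il1rl1 (0.158), Ttc30b (0.163) and Xaf1 (0.168), and for Dhx58 Slc15a3 was followed by Arid5a (0.147) and Xaf1 (0.156). The nearest gene to Eif2ak2 was Cmpk2 (0.108), a mitochondrial nucleotide kinase, followed by Tssk4 (0.115) and Plxna1 (0.128), whose own falls did not pass. Closest to Zbp1 was Ly6a (0.196), which encodes the surface antigen Sca-1. In aggressive AML, Ifit1, Il1rl1 and Ly6a had means of only 0.932, 0.631 and 0.603 CPM, where the added 1 damps differences. Mavs was most like Ankle1 (0.0636), Tmem173 most like C1galt1c1 (0.0978) and Adar most like Neurl4 (0.0411). All of these genes also had lower levels in aggressive AML, which the 8 libraries share as a common contrast.

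Other genes of the sensing routes were taken from 8 lists that together hold 119 genes, each counted once, of which 109 were tested. Of these, 30 passed as lower and 5 as higher, and 45 did not overlap between groups, beside the 10.2%, 8.15% and 21.8% of all tested genes. Their median log2 fold change was -0.06, against -0.71 for the 10 sensor genes.

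**Figure D5:**
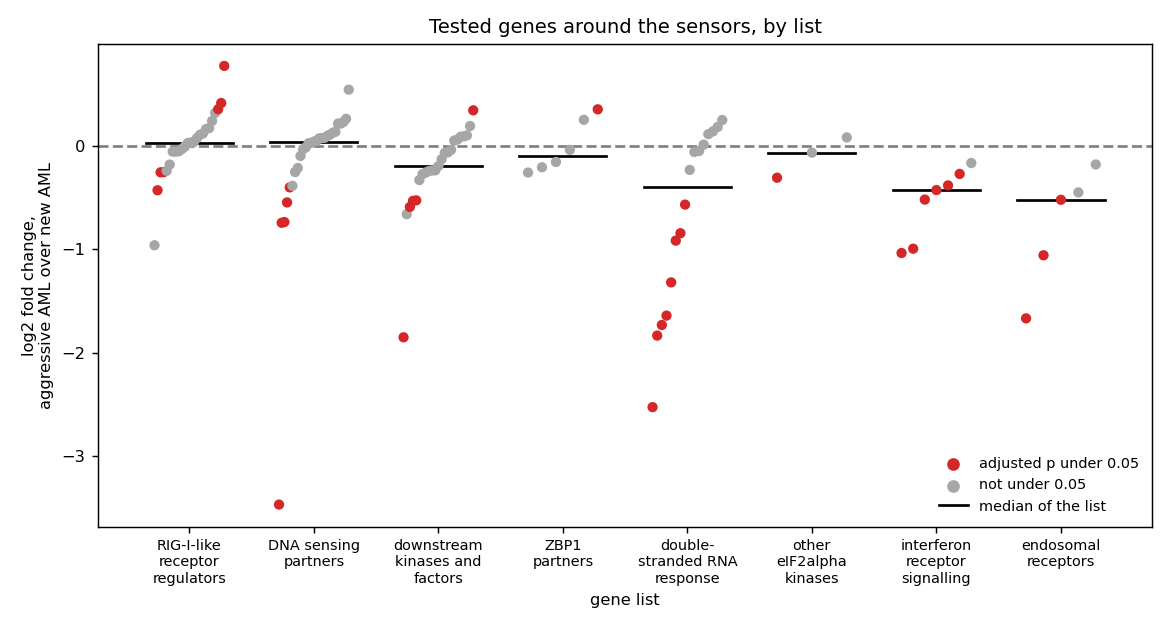
Log2 fold change of each tested gene of the 8 lists, aggressive AML over new AML, with red for genes that passed the test and a bar at the median of each list. The lists of the double-stranded RNA response, interferon receptor signalling and endosomal receptors have medians of -0.40, -0.43 and -0.52, while those of the regulators and DNA sensing partners lie near 0.

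Of 24 tested regulators of the RIG-I-like receptors, 3 passed as lower and 3 as higher, close to the 10.2% and 8.15% of all tested genes, with a median log2 fold change of 0.03. Trim25, a ubiquitin ligase that activates RIG-I, fell from 139.5 ± 8.38 to 103.6 ± 9.93 CPM (log2 fold change -0.43, edgeR adjusted p = 0.00255), and Zc3hav1 and Ywhah fell by 0.26 and 0.25 on the log2 scale. Rnf125, a ubiquitin ligase that targets RIG-I for degradation, rose from 29.7 ± 1.11 to 50.8 ± 10.01 CPM (log2 fold change 0.77, edgeR adjusted p = 0.000587). Ddx3x, a helicase that assists MAVS signalling, and Tomm70a, a mitochondrial import receptor that binds MAVS, rose by 0.41 and 0.35 on the log2 scale. The count of 3 lower genes fell to 1 in 6 of the 16 alternatives.

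Among partners and regulators of DNA sensing, 5 of 27 tested genes passed as lower and 0 as higher, beside 10.2% and 8.15% of all tested genes, and the median was 0.04. Ifi204, a DNA-binding partner of STING, fell from 8.07 ± 3.64 to 0.703 ± 0.530 CPM (log2 fold change -3.47, edgeR adjusted p = 9.93e-05). It is a member of a family of similar genes between which reads can be split, so its value is uncertain. Trex1, the exonuclease that removes cytosolic DNA, fell from 40.5 ± 1.53 to 24.2 ± 1.91 CPM (log2 fold change -0.74), and Samhd1, which degrades deoxynucleotides, fell from 130.9 ± 12.8 to 78.2 ± 6.76 CPM (-0.74). Prkdc fell by 0.40 and Lrrc8a by 0.55 on the log2 scale, and Lrrc8a shares 2853 of its 4308 exonic bases with another gene on the same strand. Aim2, a DNA sensor that signals apart from STING, had a log2 fold change of 0.09 that did not pass.

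In the list of kinases and factors downstream of the sensors, 4 of 23 tested genes passed as lower and 1 as higher. Of all tested genes 10.2% and 8.15% did so, and the median of the list was -0.20. Irf7, the factor that amplifies interferon induction, measured 21.97, 17.1, 41.8 and 24.3 CPM in new AML and 6.87, 7.66, 6.74 and 7.85 CPM in aggressive AML (log2 fold change -1.85, edgeR adjusted p = 7.08e-05). As for Zbp1 and Ddx58, new AML replicate 3 was its highest library. Irf3, the factor that TBK1 activates first, and Ikbke, the kinase closest to TBK1, did not pass, with log2 fold changes of -0.13 and 0.09. Irf5, Irf1 and Nfkb2 fell by 0.59, 0.53 and 0.53 on the log2 scale, and Traf6 was the 1 gene that passed as higher, with groups that overlapped.

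Effectors of the response to double-stranded RNA fell beside their sensors. In the double-stranded RNA response, 8 of 16 tested genes passed as lower and 0 as higher, beside 10.2% and 8.15% of all tested genes, with a median of -0.40. Most of them belong to the oligoadenylate synthetase family, enzymes that make a second messenger when they bind double-stranded RNA. Oas2 fell from 24.2 ± 7.92 to 4.17 ± 1.66 CPM (log2 fold change -2.52) and Oas3 from 58.5 ± 20.9 to 16.4 ± 2.91 CPM (-1.83). The Oas1 genes are near copies of each other, so how reads were divided among them is uncertain. Of the 3 other kinases that phosphorylate the same translation factor as PKR, Eif2ak1 fell by 0.31 on the log2 scale, and Eif2ak3 and Eif2ak4 did not pass.

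In the type I interferon list, 7 genes were tested, all of them components of receptor signalling, with a median of -0.43. Of these, 6 passed as lower and 0 as higher, beside 10.2% and 8.15% of all tested genes. Irf9 fell by 1.04 on the log2 scale, Stat2 by 0.52, Ifnar2 by 0.43, Ifnar1 by 0.38 and Tyk2 by 0.27. Irf9 shares 123 of its 3102 exonic bases with another gene on the same strand. The interferon genes Ifnb1, Ifna1, Ifna2 and Ifna4 were not analysed here. Of 5 tested endosomal receptor genes, 3 passed as lower and 0 as higher, beside the same shares of all tested genes. Tlr9, which senses DNA in endosomes, fell from 22.6 ± 2.25 to 10.8 ± 1.90 CPM (log2 fold change -1.06), Tlr7, which senses single-stranded RNA, from 8.91 ± 2.01 to 2.80 ± 1.93 CPM (-1.67), and their chaperone Unc93b1 from 423.5 ± 9.34 to 295.0 ± 15.9 CPM (-0.52).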

How the data were processed

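Polyadenylated RNA of sorted GFP-positive leukemia cells was sequenced from both ends by the authors, aligned with HISAT2 to mouse build mm10 and counted per gene with Rsubread. The deposited values are whole-number counts with a different total in each library, although the table is named for CPM, and were used as raw read counts. Which annotation was counted, and whether strand was used, is not given in the sources used here, so that overlapping genes are uncertain. Samples were grouped by their labels.

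Genes reaching 1 CPM in 4 or more libraries were tested (12494, with 329 rows left out) with edgeR (version 4.0.16, R 4.3.3) by the quasi-likelihood test on TMM-scaled counts with the group alone in the model, at a Benjamini-Hochberg adjusted p of 0.05 over all tested genes. The study tested with limma, and limma on log2(CPM + 1) is an alternative here (version 3.58.1), as is DESeq2 (version 1.42.0). The edgeR and limma steps were tested on simulated data first. Ratios of gene pairs used log2(CPM + 1) and an exact two-sided permutation test over 70 arrangements, adjusted over 5 ratios. Total counts of 7805544 to 9697777 per library make 3 counts worth 0.308 to 0.389 CPM, and the common biological coefficient of variation was 0.118.

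The members and gene lists were chosen with earlier results of these data known. All members are named. Of each list, genes that passed the test without overlap between groups were named, at most 8 by the size of the fold change, and genes that overlapped were counted. Some genes that this rule selects are not reported here. The few others named, such as Ripk3, Irf3, Ikbke, Aim2, Traf6, Eif2ak3 and Eif2ak4, were chosen after their values were seen. For each sensor that passed, the 3 tested genes of smallest root mean square difference in profile were found. Coordinates and promoter sequences are from RefSeq (GRCm38.p6, the same build as mm10) and exonic lengths from GENCODE. Alternatives were another size factor, other tests and filters, the replicate number as a block and leaving out libraries.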

Additional observations from a re-analysis of the deposited data

Results flagged for a closer look

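Dixon's ratio, the gap of the highest or lowest library to its nearest neighbour divided by the range of the group, was computed for 94 groups of 4 libraries, and 8 exceeded the 95% critical value for 4 values. Chance alone flags about 5% of groups. Among the sensor genes, Zbp1 at 32.6 CPM in new AML replicate 3 and Mavs at 25.7 CPM in aggressive AML replicate 3 stood apart from their groups in this way. Aggressive AML replicate 3 also stood apart for Rnf125 (65.8 CPM, high), Ywhah (190.7 CPM, low) and Tyk2 (88.8 CPM, low), so that it accounts for 4 of the 8. The others were Zc3hav1 in aggressive AML replicate 1 (131.9 CPM, low), Tomm70a in new AML replicate 3 (200.1 CPM, high) and Ddx3x in new AML replicate 1 (512.5 CPM, low).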

How the results depend on the processing

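Across 16 alternatives of the all-gene test, 8 or 9 sensor genes passed as lower and 0 as higher. Another size factor, DESeq2, limma with and without a trend, other filters, the replicate block and leaving out both libraries numbered 3 each gave 8, and leaving out single libraries gave 8 to 9. The ninth was Mb21d1, with a log2 fold change of -0.35 (adjusted p = 0.0403) without new AML replicate 4, in a range of -0.35 to -0.21 over the single libraries left out. The log2 fold change of Tbk1 turned to 0.0028, 0.025 and 0.049 without new AML replicate 2, new AML replicate 4 and aggressive AML replicate 1, in a range of -0.054 to 0.049. Leaving out single libraries moved the number of genes that passed from 2296 to between 1466 and 2324, those lower to between 833 and 1283 and those higher to between 633 and 1047, each lowest without new AML replicate 2. The cause was not tested.

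The log2 ratio difference of Eif2ak2 to Adar turned to -0.048 without aggressive AML replicate 3 (range -0.048 to 0.16), and the other 4 ratios kept their direction in 11 alternatives, with ranges of -0.51 to -0.11 for Ddx58 and -0.59 to -0.14 for Ifih1 over Mavs. The 1 higher gene in the list downstream of the sensors, Traf6, was lost in 8 of 16 alternatives. Deviations from the group means of samples with the same number correlated at 0.0967, -0.0399, -0.0654 and 0.204, so the numbers were not taken to pair the samples. With the replicate number as a block, 2367 genes and the same 8 sensor genes passed. For the paired ratio of Mb21d1 to Tmem173 and of Zbp1 to Ripk3, the adjusted p with the replicate block was 0.208. It comes from flipping the signs of 4 paired differences, which cannot give a p under 0.05 at any size of difference. This setting therefore does not decide whether these ratios changed. Fewer than 30 reads of Zbp1 per aggressive AML library limit the precision of its level there.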
